A study of Mus musculus with 20 samples.

Results

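Transcript levels of extracellular matrix and integrin genes were compared between the normal prostates of 5 inbred mouse strains. The genes were collagens, laminin chains, nidogens, fibronectin, elastin, fibulins, fibrillins, thrombospondins, lysyl oxidases, Sparc and its relative Sparcl1, small proteoglycans, periostin, Srpx, tissue inhibitors of metalloproteinases and integrin subunits, picked by symbol alone. They were represented by 109 of 11552 array elements (spotted cDNA clones), which named 67 of the 5827 genes that had an element with a single symbol. Of these genes, 38 had 1 element and 29 had several, up to 4. No member was lost for missing values: 105 elements had a value on all 20 arrays and 4 lacked 1 value. A further 6 elements whose several symbols included a gene of this kind were left out.

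Prostates came from male C57BL/6J, 129X1/SvJ, FVB/NJ, BALB/c (substrain BALB/cAnCrl) and DBA/2 (DBA/2NCrl) mice aged 8 to 9 weeks, with no transgene and no treatment. Each of the 4 pools of a strain held RNA of 3 mice, with the anterior, ventral, lateral and dorsal lobes in equal shares, which makes 60 mice on 20 arrays. Amplified RNA of a pool and of a reference made from all the samples was hybridized to the same array, and every value below is log2 of sample over reference. Cy3 marked the RNA of 2 pools of a strain, and Cy5 that of the other 2. The study obtained the C57BL/6J, 129X1/SvJ and FVB/NJ mice from a different supplier than the other strains, so that supplier and strain cannot be told apart. Log ratios against a pool of the same tissue give no absolute level, and they cannot show how abundant a transcript was.

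The extracellular matrix of the prostate is laid down mostly by the fibroblasts and smooth muscle cells of the stroma. Fibrillar collagens and elastic fibres give the stroma strength and recoil, while laminins, nidogens and network-forming collagens build the basement membrane on which the epithelium rests. Integrins are cell surface receptors made of an alpha and a beta chain, and they bind cells to these proteins. In whole tissue, fewer cells of a type and less RNA per cell cannot be told apart.

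Differences between strains were spread thinly over these genes and were large for few of them. In limma's moderated F test over the 5 strains, 14 of the 109 elements (12.8%), from 11 genes, passed at an adjusted p of 0.1 or less. The share among all 11159 elements tested was 11.3%, so the count itself is close to the background. It fell to 8 or 9 without FVB/NJ pool 1 or 2, BALB/c pool 4 or DBA/2 pool 3. The strain means of a member differed by a median of 0.41 on the log2 scale between the highest and the lowest strain, against 0.32 over all elements. Pools of 1 strain also spread more for the members, with a median SD of 0.26 against 0.22 over all elements. The genes that passed were Col6a3, Srpx, Eln, Itgb1, Itga6, Col18a1, Col1a1, Itga8, Col3a1, Fbln2 and Itgb1bp1.

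**Figure D1:**
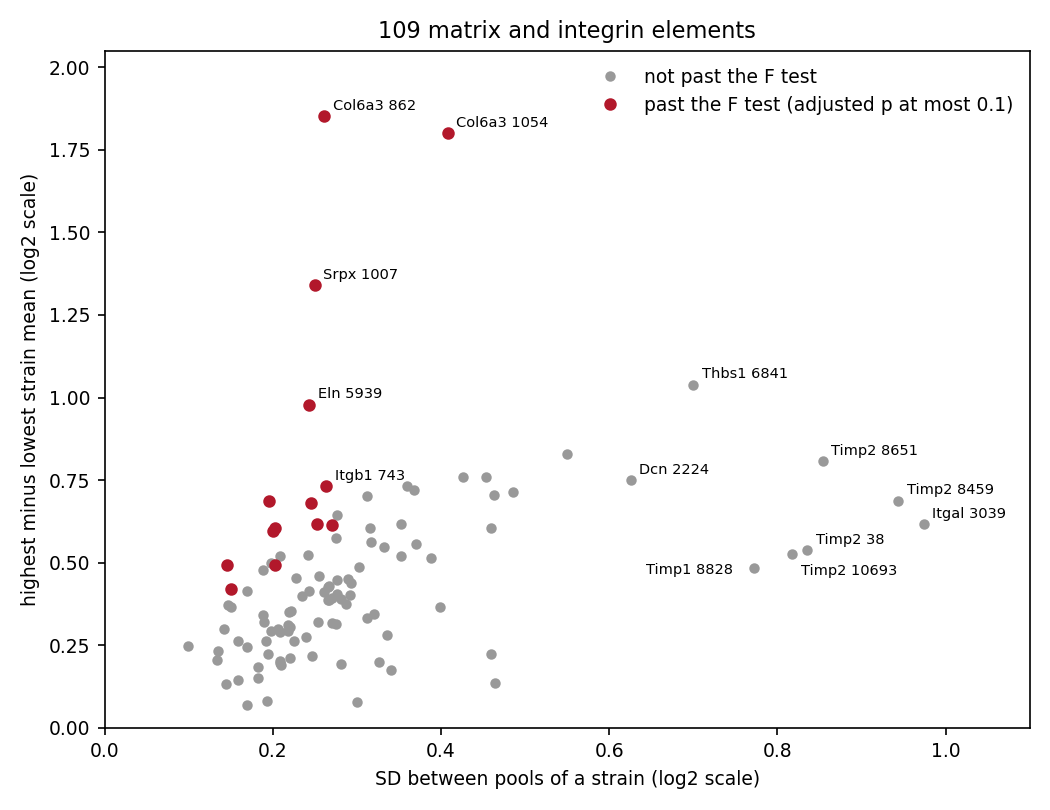
Each point is 1 of the 109 elements, with the SD between pools of a strain on the x axis and the highest minus the lowest strain mean on the y axis, both on the log2 scale; red points passed the F test. Both Col6a3 elements and Srpx lie highest, while the 4 Timp2 elements and 1 Itgal element lie far to the right, with an SD between pools above 0.8.

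DBA/2 and FVB/NJ stood at opposite ends for the genes with the largest differences. Of the 14 elements, 6 were highest in DBA/2 and none was lowest there, while 5 were lowest in FVB/NJ and 4 highest. Over all 1258 elements that passed, 191 were highest and 220 lowest in DBA/2, and 237 were highest and 227 lowest in FVB/NJ. In contrasts of each strain with the mean of the other 4 (limma, adjusted p below 0.05), 4 members were higher in DBA/2 (background 1.09%) and 0 lower (background 0.869%). For FVB/NJ, 1 member was higher (background 1.22%) and 4 were lower (background 1.34%). For BALB/c, 1 was higher (background 0.914%) and 2 lower (background 1.12%). For C57BL/6J, 1 was higher (background 1.77%) and 1 lower (background 1.44%), and for 129X1/SvJ 2 were higher (background 2.96%) and 1 lower (background 2.74%). When every array was scaled to the same spread, DBA/2 had 8 higher and 1 lower, FVB/NJ 3 and 6, BALB/c 1 and 4, and 129X1/SvJ 0 in both directions, while C57BL/6J stayed at 1 and 1. The share over all elements under this scaling is not given here, so these changed counts cannot be set against a background.

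**Figure D2:**
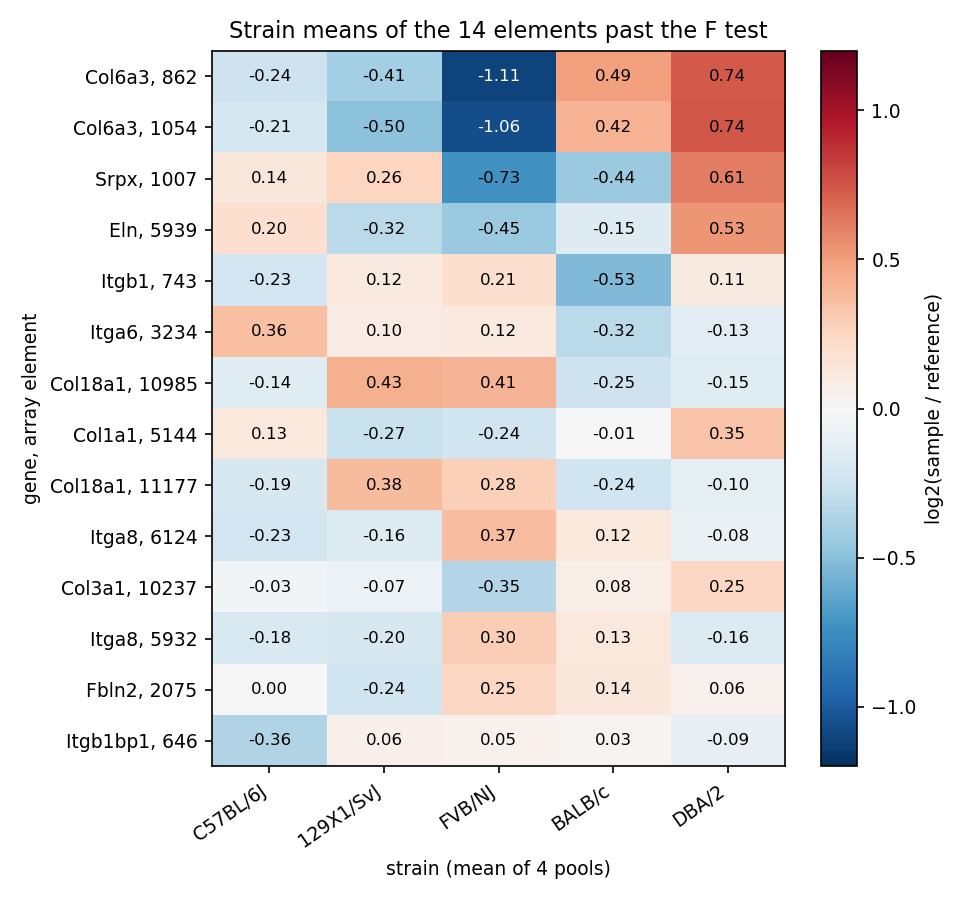
Mean log2 ratio of the 4 pools of each strain (columns) for the 14 elements that passed the F test (rows, gene and element number), from blue (low) to red (high), ordered by how far the strain means lay apart. Col6a3 runs from -1.11 in FVB/NJ to 0.74 in DBA/2, and Itgb1bp1, the last row, from -0.36 in C57BL/6J to 0.06 in 129X1/SvJ.

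Among collagens that do not form striated fibrils, Col6a3 had the widest range of all members. It encodes a chain of type VI collagen, which forms beaded microfilaments close to cell surfaces. On its element 862, the FVB/NJ pools 1 to 4 measured -1.27, -1.27, -0.77 and -1.15. The DBA/2 pools measured 1.13, 0.50, 0.63 and 0.69, and the BALB/c pools 0.83, 0.42, 0.11 and 0.62. Every FVB/NJ pool therefore lay below every pool of the other strains, and all DBA/2 and BALB/c pools lay above the reference. The C57BL/6J pools measured -0.12, -0.15, -0.48 and -0.23, and the 129X1/SvJ pools -0.60, -0.66, -0.36 and -0.01. These overlapped each other and filled the space between. The DBA/2 mean was 0.74 ± 0.28 (SD, n = 4) and the FVB/NJ mean -1.11 ± 0.23, which is a 3.61-fold difference (adjusted p = 2.12e-06, limma F test).

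Against the mean of the other strains, DBA/2 was higher by 1.05 ± 0.14 (SE, log2, adjusted p = 1.05e-04 in limma) and BALB/c by 0.75 ± 0.14 (adjusted p = 0.00381). The second Col6a3 element, 1054, gave the same order for its extremes, with DBA/2 at 0.74 ± 0.54 and FVB/NJ at -1.06 ± 0.14 (3.49-fold, limma adjusted p = 5.39e-04). Its FVB/NJ pools, from -1.25 to -0.91, were again below all others. BALB/c was not called on that element (0.68 ± 0.21 above the others, adjusted p = 0.134 in limma). Elements 862 and 1054 may be repeated spots of the same clone, so they need not be independent readings of Col6a3. Col6a1, which encodes another chain of the same collagen, did not pass (adjusted p = 0.555), although its lowest mean was also in FVB/NJ (-0.15) and its highest in DBA/2 (0.14). Of the 6 collagen genes in this group, Col8a2, Col14a1, Col22a1 and Col23a1 also gave no element past the test.

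**Figure D3:**
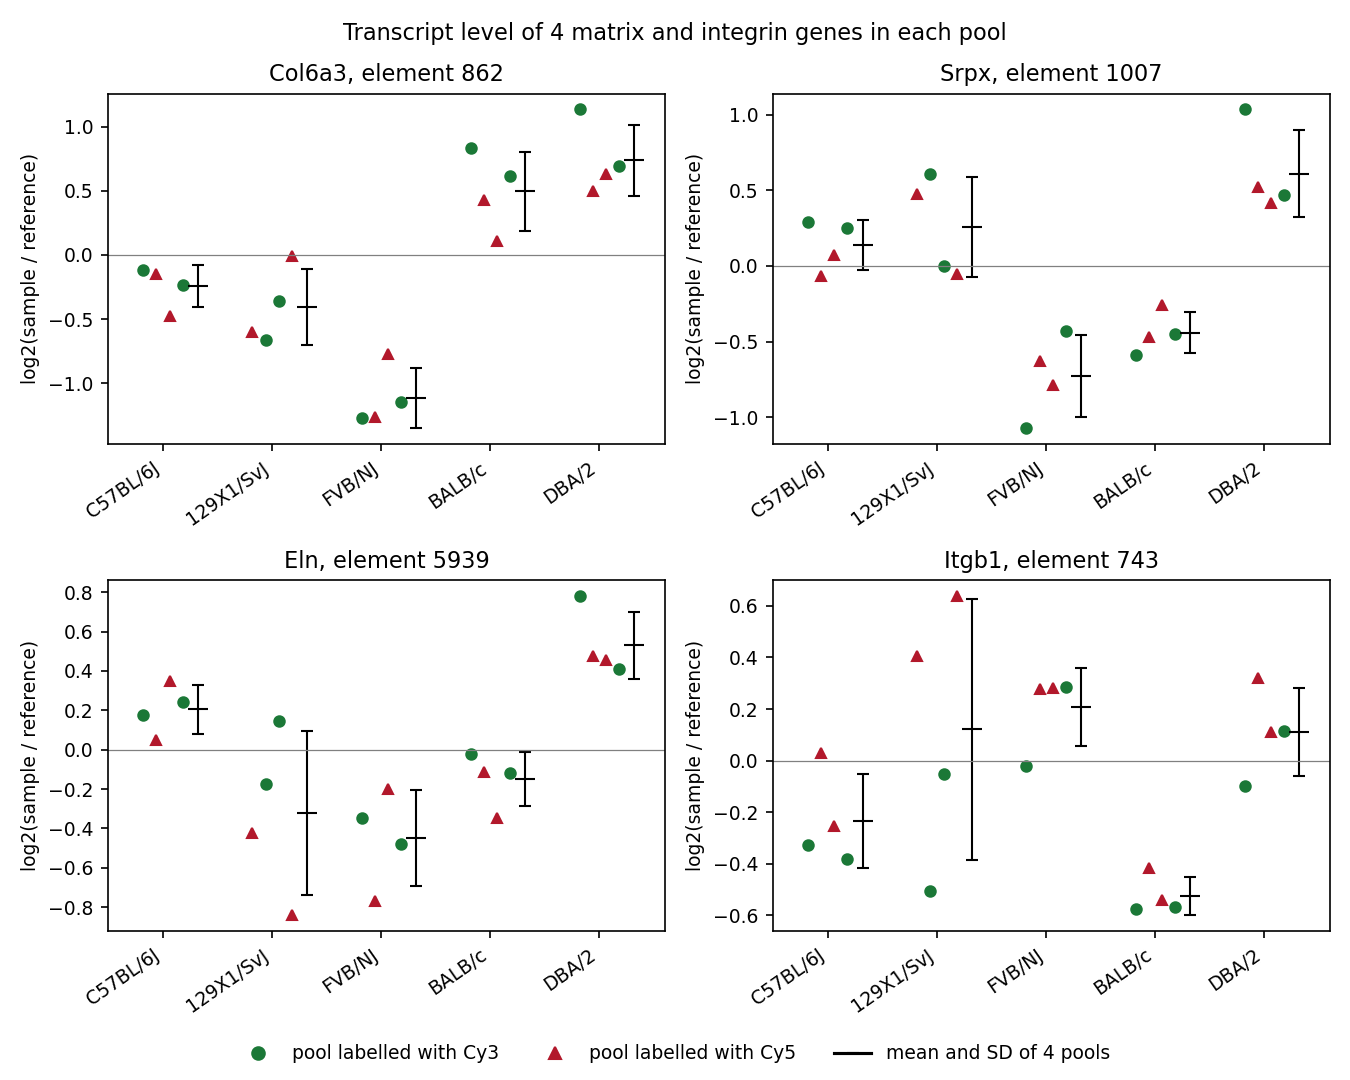
Log2 ratio of each pool to the reference for Col6a3, Srpx, Eln and Itgb1 (y axis) by strain (x axis); green circles are pools labelled with Cy3, red triangles pools labelled with Cy5, and black marks show mean and SD of 4 pools. All FVB/NJ pools of Col6a3 lie below every other pool, all DBA/2 pools of Eln lie above every other pool, and the BALB/c pools of Itgb1 lie between -0.58 and -0.42.

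Srpx, an X-linked gene for an extracellular protein with sushi repeats, had the next widest range among the genes that passed. Its FVB/NJ pools measured -1.07, -0.63, -0.79 and -0.43 and its BALB/c pools -0.59, -0.47, -0.26 and -0.45. The DBA/2 pools measured 1.03, 0.52, 0.42 and 0.47. In 129X1/SvJ the pools measured 0.47, 0.61, 0.00 and -0.05, and in C57BL/6J 0.29, -0.07, 0.07 and 0.25. All pools of FVB/NJ and BALB/c lay below all pools of the remaining 3 strains. The highest and the lowest mean, 0.61 ± 0.29 in DBA/2 and -0.73 ± 0.27 in FVB/NJ, differed 2.53-fold (limma adjusted p = 8.21e-05). BALB/c was thus low for Srpx and high for Col6a3, whereas DBA/2 and FVB/NJ kept their places for both.

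Because Col6a3 and Srpx shared their highest and lowest strain, the 250 bases before the start of each gene are shown, 5′ to 3′ on the gene's strand, from RefSeq on the GRCm38.p6 reference build. Capitals mark a GC box. Col6a3 is on the minus strand at chr1:90843972-90844221 and Srpx on the minus strand at chrX:10117641-10117890.
Col6a3: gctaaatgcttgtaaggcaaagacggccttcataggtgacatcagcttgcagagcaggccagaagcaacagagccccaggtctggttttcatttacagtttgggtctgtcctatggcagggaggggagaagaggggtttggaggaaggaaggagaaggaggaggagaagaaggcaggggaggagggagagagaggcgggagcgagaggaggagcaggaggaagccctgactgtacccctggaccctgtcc
Srpx: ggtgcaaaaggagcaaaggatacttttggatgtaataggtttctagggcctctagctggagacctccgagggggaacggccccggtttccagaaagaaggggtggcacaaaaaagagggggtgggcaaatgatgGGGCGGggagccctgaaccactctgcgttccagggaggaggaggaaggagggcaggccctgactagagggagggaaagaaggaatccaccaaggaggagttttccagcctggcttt
On both strands, the TATA box TATAAA and the CCAAT box CCAAT were not among the letters of either window, and the GC box GGGCGG occurred only in Srpx, 1 time, at position -116 from the start. Of 32851 promoters of the same length, 12.4% held TATAAA, 33.8% CCAAT and 32.7% GGGCGG. Promoters were listed for 44 of the 67 genes. No motif of these 3 was common to both genes, and this describes the letters of the reference only.

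Among the fibrillar collagens, 2 of 6 genes had an element past the test, Col1a1 and Col3a1. Col1a1 encodes the major chain of type I collagen. Its DBA/2 pools measured 0.64, -0.04, 0.36 and 0.42, and its C57BL/6J pools 0.20, -0.18, 0.03 and 0.46. The 129X1/SvJ pools measured -0.24, -0.01, -0.16 and -0.68, the FVB/NJ pools 0.03, -0.47, -0.19 and -0.32, and the BALB/c pools 0.10, -0.18, -0.16 and 0.21. The groups overlapped. DBA/2 exceeded 129X1/SvJ 1.53-fold (limma adjusted p = 0.0946), and the call was lost in 15 of the 20 fits that left out 1 pool. The same transcript read 0.33 lower in Cy5 than in Cy3 (fell by 0.33, adjusted p = 0.0096 in limma), a dye difference that was balanced within every strain.

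Type III collagen, which accompanies type I in the stroma, was read by 3 elements of Col3a1 that differed. Element 10237 passed, with DBA/2 pools at 0.48, 0.12, 0.16 and 0.22 and FVB/NJ pools at -0.55, -0.36, -0.13 and -0.35 (1.51-fold, limma adjusted p = 0.0842). The DBA/2 and FVB/NJ pools did not overlap. Element 2985 had its highest mean in C57BL/6J (0.32 ± 0.24) and its lowest in FVB/NJ (-0.21 ± 0.17), with an adjusted p of 0.126 in limma. Element 10961 was highest in DBA/2 and lowest in FVB/NJ, with an adjusted p of 0.567. All 3 thus had FVB/NJ lowest, and C57BL/6J moved from 0.32 on 1 element to -0.03 and -0.02 on the other 2. Col1a2, the second chain of type I collagen, had an adjusted p of 0.444, and Col5a2, a chain that helps to set fibril width, 0.909.

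Deviations of each pool from its strain mean were used to ask whether stromal collagens moved together from pool to pool. Of 4 relations with Col3a1 (element 2985) over 20 pools, that with Col1a2 was the closest, with Pearson's r = 0.854 (permutation p = 0.00019, adjusted over the 4 relations 0.00076) and Spearman's rho = 0.779 (permutation p = 8e-04, adjusted 0.0032). Without the 2 pools farthest from the median of Col3a1, both of 129X1/SvJ, r was 0.766 (permutation p = 0.005, adjusted 0.02). It was 0.926 in the 10 Cy3 pools and 0.821 in the 10 Cy5 pools, where the exact permutation test allows no p below 0.0625. Col1a1 had r = 0.0283 and rho = -0.00902 with Col3a1 (permutation p = 0.925 and 0.976). Dcn, which encodes the collagen-binding proteoglycan decorin, had r = 0.538 (permutation p = 0.226) and rho = 0.412 (p = 0.19 by permutation). For Sparc r was 0.125 and rho -0.108 (permutation p = 0.737 and 0.712), and r turned to -0.585 among the Cy5 pools. The pools compared share their array, dye and amplification for both genes of a pair. Correlations of these genes with the other elements of Col3a1 were not computed. The contrast between Col1a2 and Col1a1 therefore applies to element 2985 only.

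**Figure D4:**
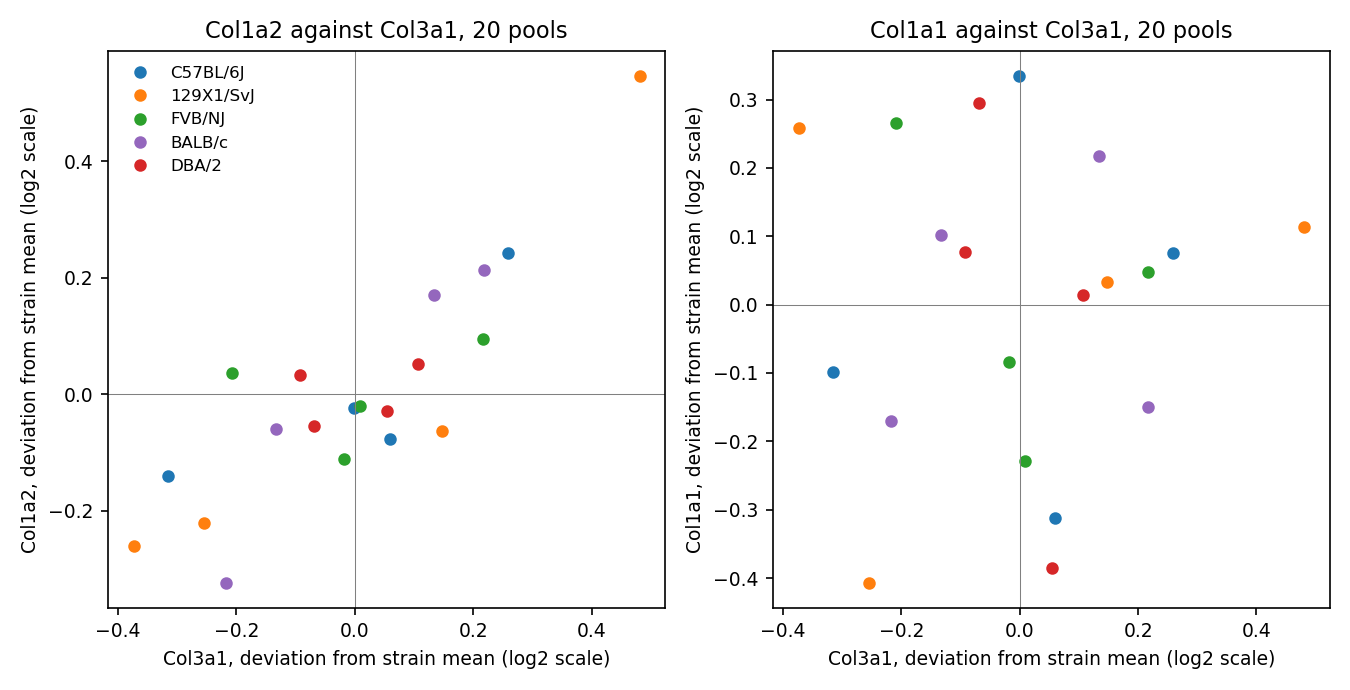
Deviation of each of 20 pools from its strain mean, on the log2 scale, for Col3a1 (element 2985, x axis) against Col1a2 (left, y axis) and Col1a1 (right, y axis), coloured by strain. For this element of Col3a1, the points of Col1a2 rise along the diagonal (r = 0.854) and those of Col1a1 do not (r = 0.0283). Other elements of Col3a1 are not shown.

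In the elastic fibre and cross-linking group, 2 of 8 genes passed. Eln encodes tropoelastin, the core of elastic fibres. Its DBA/2 pools measured 0.78, 0.48, 0.45 and 0.41, and its C57BL/6J pools 0.18, 0.05, 0.35 and 0.24. The FVB/NJ pools measured -0.35, -0.77, -0.20 and -0.48, the BALB/c pools -0.02, -0.11, -0.34 and -0.12, and the 129X1/SvJ pools -0.43, -0.17, 0.15 and -0.84. Each DBA/2 pool was above all 16 pools of the other strains. DBA/2 and FVB/NJ differed 1.97-fold (limma adjusted p = 0.00218), and DBA/2 exceeded the mean of the other strains by 0.71 ± 0.13 (SE, log2, adjusted p = 0.00376).

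Fbln2 encodes fibulin-2, a linker protein of elastic fibres and basement membranes, and had another order of strains. Its 129X1/SvJ pools measured -0.10, -0.15, -0.34 and -0.37, and its FVB/NJ pools 0.43, 0.07, 0.08 and 0.42. Pools of C57BL/6J lay between -0.10 and 0.09, of BALB/c between 0.04 and 0.23 and of DBA/2 between -0.10 and 0.32. 129X1/SvJ was lower than the mean of the others by 0.35 (fell by 0.35 ± 0.09, limma adjusted p = 0.0256), and its difference from FVB/NJ was 1.41-fold (F test, limma adjusted p = 0.0637). This call was lost without 129X1/SvJ pool 3 or 4 or FVB/NJ pool 1 or 4 (highest adjusted p = 0.146). Lox and Loxl1, which cross-link collagen and elastin, had adjusted p values of 0.463 and 0.924, and Fbln1 0.5.

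For the basement membrane, 1 of 11 genes had elements past the test. Col18a1 encodes a collagen of basement membranes whose end fragment is endostatin, and 2 of its 3 elements passed. On element 10985 the 129X1/SvJ pools measured -0.05, 0.48, 0.42 and 0.86, and the FVB/NJ pools 0.44, 0.56, 0.54 and 0.11. The BALB/c pools measured -0.08, -0.23, -0.52 and -0.18, the C57BL/6J pools from -0.42 to 0.11 and the DBA/2 pools from -0.26 to 0.09. 129X1/SvJ and FVB/NJ were the high strains, and 1 pool of each overlapped the low ones. The highest and lowest means, 0.43 ± 0.38 in 129X1/SvJ and -0.25 ± 0.19 in BALB/c, differed 1.60-fold (limma adjusted p = 0.0139). Element 11177 gave 1.53-fold between the same strains (adjusted p = 0.076, limma). On element 5685 129X1/SvJ was again highest (0.48 ± 0.19) and BALB/c lowest (-0.16 ± 0.45), but FVB/NJ stood at 0.07 ± 0.23 and the F test gave an adjusted p of 0.168.

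The laminin chains and nidogens, which join into the sheet itself, gave no call. Adjusted p values in limma ranged from 0.427 to 0.973 over the 4 elements of Lamb1, and were 0.373 for Lamb2, 0.663 for Nid1 and 0.585 for Nid2. Col4a1, a chain of the main network collagen, had 129X1/SvJ highest on all 3 elements (means 0.26, 0.33 and 0.25) with adjusted p values of 0.486, 0.376 and 0.394.

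Among integrins of matrix adhesion, 3 of 12 genes had an element past the test, and each had other elements that did not pass. Itgb1 encodes the beta subunit shared by most matrix-binding integrins. On element 743 the BALB/c pools measured -0.58, -0.42, -0.54 and -0.57, and the FVB/NJ pools -0.02, 0.28, 0.28 and 0.29. The C57BL/6J pools measured -0.33, 0.03, -0.25 and -0.38, the DBA/2 pools -0.10, 0.32, 0.11 and 0.12, and the 129X1/SvJ pools 0.41, -0.51, -0.05 and 0.64. BALB/c was the lowest strain with the tightest pools, and only 1 pool of another strain, of 129X1/SvJ, lay among them. FVB/NJ exceeded BALB/c 1.66-fold (limma adjusted p = 0.0383). On this element Cy5 pools read 0.30 higher than Cy3 pools (adjusted p = 0.0332 in limma).

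The other 3 elements of Itgb1 did not pass, with adjusted p values of 0.34, 0.645 and 0.674, and the FVB/NJ minus BALB/c difference was 0.17, 0.16 and 0.05 on them against 0.73 on element 743. On element 1838 the DBA/2 pools, at 0.24, 0.29, 0.32 and 0.26, nevertheless lay above every pool of the other strains. Pools of a strain lay wholly above or wholly below all others for 4 of the 109 member elements (3.67%), both of Col6a3, Eln and this one. The same held for 3.82% of all 11159 elements tested, so this share of members was near the background.

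Itga6 encodes an alpha subunit of laminin-binding integrins in epithelium. Its element 3234 measured 0.80, 0.35, 0.07 and 0.25 in C57BL/6J and -0.33, -0.54, -0.20 and -0.22 in BALB/c. Pools of 129X1/SvJ lay between 0.01 and 0.18, of FVB/NJ between -0.08 and 0.30 and of DBA/2 between -0.25 and 0.12. The C57BL/6J and BALB/c pools did not overlap, and their means differed 1.61-fold (limma adjusted p = 0.0225). Element 3042 had the same highest and lowest strain (0.23 ± 0.17 and -0.29 ± 0.18) with an adjusted p of 0.166 in limma. Itgb4, the beta subunit that pairs with it in hemidesmosomes, was lowest in C57BL/6J on both elements (-0.51 ± 0.56 and -0.30 ± 0.36), with adjusted p values of 0.188 and 0.345. C57BL/6J thus had the highest mean for Itga6 and the lowest for Itgb4, and only the former passed.

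Itga8 encodes an alpha subunit found on smooth muscle and other mesenchymal cells, and 2 of its 3 elements passed. Element 6124 measured 0.47, 0.52, 0.20 and 0.30 in FVB/NJ and -0.38, 0.11, -0.42 and -0.25 in C57BL/6J. The 129X1/SvJ pools measured -0.24, 0.21, -0.40 and -0.22, the BALB/c pools 0.37, -0.04, -0.06 and 0.23, and the DBA/2 pools -0.02, -0.09, -0.23 and 0.01. FVB/NJ was highest, above all C57BL/6J and DBA/2 pools, and exceeded C57BL/6J 1.52-fold (limma adjusted p = 0.0412). Element 5932 also had FVB/NJ highest (0.30 ± 0.13, adjusted p = 0.0784 in limma), as did element 6394 (0.16 ± 0.12, adjusted p = 0.555). The call of element 5932 was lost in 12 of the 20 fits that left out 1 pool (highest adjusted p = 0.188 in limma). Elements 5932 and 6124 may be repeated spots of the same clone, so they need not be independent readings.

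Itgb1bp1 matched by its symbol, but it encodes an intracellular adaptor that binds the tail of the integrin beta subunit and is no matrix or integrin gene. The C57BL/6J pools measured -0.38, -0.53, -0.32 and -0.20, and the 129X1/SvJ pools 0.08, 0.13, 0.03 and 0.00. Pools of the remaining strains lay between -0.26 and 0.26, so that C57BL/6J overlapped them only at its upper end. Its difference from 129X1/SvJ was 1.34-fold (limma adjusted p = 0.0916) and was lost in 15 of 20 fits that left out 1 pool. None of the 12 elements of integrins of blood cells (8 genes, among them Itgam and Itgb2 of neutrophils and macrophages) passed in limma, and the smallest adjusted p was 0.51. None of the 8 elements of metalloproteinase inhibitors passed either. No element of these 2 groups had an unadjusted p under 0.05.

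Of the proteoglycan and matricellular genes, which modulate the contact of cells with matrix, Srpx alone of 11 passed. Sparc and Sparcl1, which bind collagen, had DBA/2 highest and FVB/NJ lowest but missed the threshold. For Sparc the means were 0.18 ± 0.12 and -0.32 ± 0.13 (limma adjusted p = 0.2), and for Sparcl1 0.16 ± 0.25 and -0.32 ± 0.15 (limma adjusted p = 0.132). Fn1, which encodes fibronectin, was highest in BALB/c and lowest in DBA/2 on both of its elements (adjusted p = 0.521 and 0.238 in limma). Lum had an adjusted p of 0.81 and Postn 0.904.

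Some members differed more between pools of 1 strain than between strains. Arrays of 129X1/SvJ had the widest spread over all elements, with a median absolute deviation of 0.29 to 0.43 against 0.16 to 0.29 in the other strains. Of 2176 member values, 23 were below -1, and 14 of these came from 129X1/SvJ, 9 of them from its pool 4. That pool was the lowest of the 20 for 22.9% of the members and for 18.8% of all elements. The members with the largest SD between pools were picked after their values were seen.

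Timp2, an inhibitor of matrix metalloproteinases, measured -3.17 in 129X1/SvJ pool 4 on element 38, and 0.32, 0.23 and 0.67 in pools 1 to 3. On its other 3 elements the same pool measured -3.61, -3.43 and -3.08. All 4 elements therefore placed this pool apart, while the other 19 pools lay between -0.63 and 0.88. Thbs1, which encodes thrombospondin, was at -2.06 and -3.0 in that pool on its 2 elements. Dcn was at -2.17 there on element 2224 and at -0.26 on element 10953. Timp1 measured -2.16 in 129X1/SvJ pool 3 and 1.31 in pool 4, and Itgal element 3039, for an integrin subunit of leukocytes, measured 3.11 in pool 3 and -1.36 in pool 1. None of these genes passed the F test, with adjusted p values in limma from 0.543 (Thbs1) to 0.966 (Timp1).

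**Figure D5:**
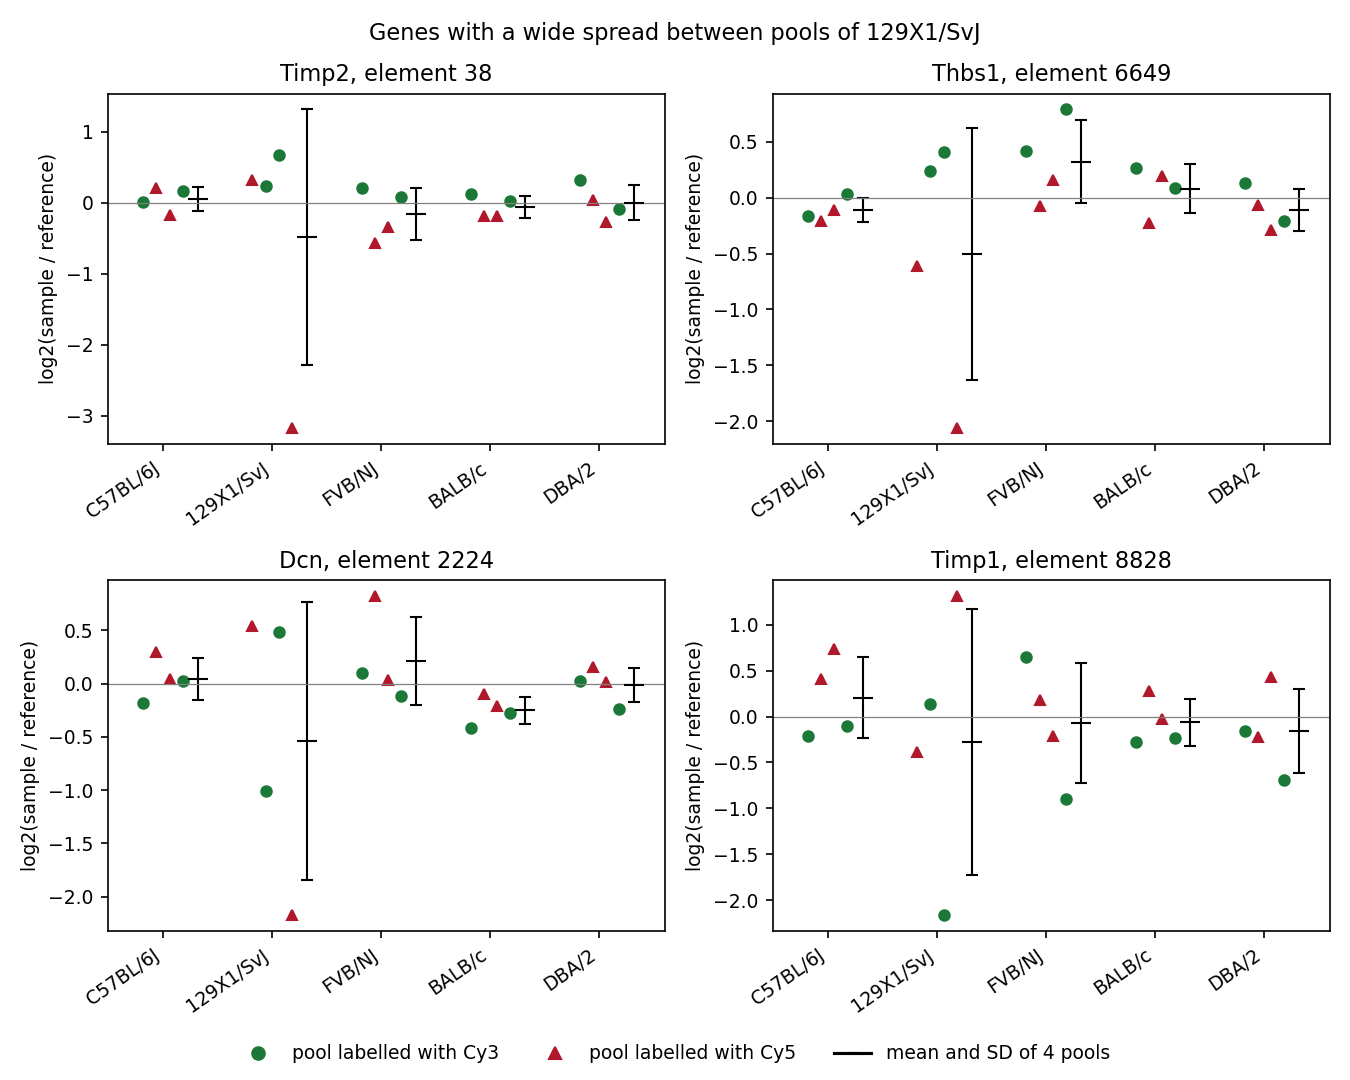
Log2 ratio of each pool to the reference for Timp2, Thbs1, Dcn and Timp1 (y axis) by strain (x axis); symbols and colours mark the dye of the pool, and black marks show mean and SD of 4 pools. In 129X1/SvJ 1 pool lies far below the others for each gene, pool 4 for Timp2, Thbs1 and Dcn and pool 3 for Timp1.

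The dye of the sample, which was balanced within strains, separated 16 of 109 elements (14.7%) at an adjusted p below 0.05 in limma, against a background of 15.9%. Apart from Itgb1 and Col1a1 given above, these included both elements of Itgb4 (fell by 0.45 and 0.38 from Cy3 to Cy5) and Sparc (fell by 0.23). Col18a1 element 5685, which had not passed the F test, was also among them (fell by 0.32, adjusted p = 0.0262 in limma).

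Other matrix and adhesion genes outside this set, from a list of 84 of which 36 were measured, gave 9 that passed the F test. Each gene was read from 1 element, and 11.3% of all 11159 elements tested passed. Mgp, an inhibitor of matrix calcification, was lowest in BALB/c (-0.70 ± 0.30) and highest in C57BL/6J (0.27 ± 0.07, 1.97-fold, limma adjusted p = 0.0249). Ltbp4, which holds latent TGF-beta on elastic fibres, was lowest in BALB/c (-0.60 ± 0.19), as was Matn2, a matrilin (-0.47 ± 0.33), with 1.80-fold and 1.65-fold differences from 129X1/SvJ. Plod2, a lysyl hydroxylase of collagen, was highest in C57BL/6J (0.34 ± 0.20) and lowest in 129X1/SvJ (-0.52 ± 0.43, limma adjusted p = 0.00885). Adamts1, a matrix protease, was highest in FVB/NJ (0.48 ± 0.34) and lowest in BALB/c (-0.16 ± 0.24). Sdc2, a cell surface proteoglycan, was highest in 129X1/SvJ (0.29 ± 0.20) and lowest in DBA/2 (-0.34 ± 0.09). Tnc, Vcan and Sdc3 also passed.

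Markers of other cells of the tissue were set beside these results, again against a share of 11.3% of all elements past the F test. Of 7 fibroblast markers measured, Igf1 and Cxcl12 passed, both highest in 129X1/SvJ and lowest in C57BL/6J. Of those that did not pass, Pi16 and Cd34 were highest in DBA/2, Pdgfrb and Thy1 in C57BL/6J and Pdgfra in 129X1/SvJ. The fibroblast list mean ran from -0.10 to -0.02 in C57BL/6J pools and from 0.07 to 0.21 in 129X1/SvJ. It ran from -0.14 to 0.16 in FVB/NJ, from -0.13 to 0.14 in BALB/c and from -0.04 to 0.13 in DBA/2. None of 10 smooth muscle markers passed. Their mean over the list ran from 0.03 to 0.26 in DBA/2 pools, from -0.15 to 0.19 in FVB/NJ, from -0.19 to -0.07 in C57BL/6J, from -0.10 to 0.04 in BALB/c and from -0.49 to 0.24 in 129X1/SvJ. This mean was above 0 in all 4 pools of DBA/2, the highest strain for Eln. It was below 0 in all 4 pools of C57BL/6J, the next highest strain for Eln. Of 9 skeletal muscle markers 2 passed. Acta1 was highest in DBA/2 (0.62 ± 0.19), and Tnnc2 was highest in 129X1/SvJ (0.37 ± 0.25) and at -0.21 ± 0.35 in DBA/2. The mean of this list ran from -0.03 to 0.40 over the DBA/2 pools, from -0.25 to 0.16 in FVB/NJ, from -0.45 to 0.25 in C57BL/6J, from -0.34 to 0.29 in BALB/c and from -0.37 to 0.21 in 129X1/SvJ. Of 6 seminal vesicle markers 3 passed, and the list mean ran from 0.57 to 1.42 in BALB/c, against -3.56 to -0.04 in the other strains. The part of other cells or of neighbouring tissue in the differences was not tested. None of 6 endothelial markers passed, nor the basal epithelial marker measured nor either of 2 nerve markers, while 2 of 4 leukocyte, 2 of 10 luminal and 2 of 3 adipose markers did.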

How the data were processed

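Custom 2-colour cDNA arrays carried amplified RNA of a pool of mouse prostates and of a common reference. The authors normalized the intensities within print-tip groups by loess and deposited log2 ratios of sample over reference, 1 column for each of 20 arrays, which were used as deposited. Elements with more than 3 missing values or fewer than 2 values in a strain were left out, which kept 11159. Strain means were fitted with limma 3.58.1 in R 4.3.3, without a block, and tested with a moderated F test at an adjusted p of 0.1 and with contrasts of each strain against the mean of the other 4 at 0.05, both adjusted by Benjamini-Hochberg over all elements. A dye term was fitted apart. Correlations used 100000 permutations within strains, or 20000 without 2 pools, and exact enumeration within a dye. Scripts were tested on simulated data. Members, gene lists and tests were chosen with earlier results of these data known. Named genes were all members past the F test, core genes of each role, and up to 6 other matrix genes past the test by the size of their difference, each read first from the element with fewest missing values and then the lowest number. Elements were named through GEO's platform annotation, in which 8050 elements had 1 symbol, 672 had several and 2830 were not listed. All 109 members matched RefSeq by gene ID with no symbol changed. Elements of 1 gene may be repeated spots of the same clone, so agreement between them need not be independent. The sequence of the clones was not used here. The labels call the pools independent, and precision is limited by how many arrays there were. Alternatives were array scaling, quantile normalization, the dye, the pool number as a block, averaging by gene, plain analysis of variance, array weights and leaving out pools.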

Additional observations from a re-analysis of the deposited data

Results flagged for a closer look

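In 11 of 180 strain groups of 4 pools, over the 36 named genes, 1 pool lay far from the other 3 by Dixon's test. Chance flags about 1 in 20 groups. The widest gap was that of Timp2 in 129X1/SvJ pool 4 (-3.17, with the next pool at 0.23). The pool with the highest value stood apart for Srpx in DBA/2 (pool 1, 1.03), Itga6 in DBA/2 (pool 1, 0.23), Col6a1 in C57BL/6J (pool 4, 0.19), Lox in FVB/NJ (pool 4, 0.31) and Itgam in DBA/2 (pool 4, 0.29). The pool with the lowest value stood apart for Itgb1 in FVB/NJ (pool 1, -0.0209), Nid1 in C57BL/6J (pool 1, -0.15), Sparc in DBA/2 (pool 3, 0.0087), Lum in 129X1/SvJ (pool 4, -0.48) and Timp3 in DBA/2 (pool 1, -0.33). Without DBA/2 pool 1 or FVB/NJ pool 1, Srpx and Itgb1 kept their calls, as they did without any other single pool. For Itgb1 the highest adjusted p was 0.0999 (limma F test, without BALB/c pool 4), barely under the threshold of 0.1. For Srpx the highest was 3.92e-04 in the same test.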

How the results depend on the processing

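Col6a3 and Srpx passed the F test under every alternative run for them, and Eln under all but the Cy5 pools alone (limma adjusted p = 0.139). Itgb1 was lost among Cy3 pools alone (adjusted p = 0.183) and on its 3 other elements. The 14 elements called became 6 among Cy3 pools alone, 3 among Cy5 pools alone and 28 with array weights. For the alternatives in this section no share over all elements is given, so a changed count cannot be set against a background. Leaving out 1 pool gave 8 (without FVB/NJ pool 2) to 18 (without 129X1/SvJ pool 4). Counts of elements that differed in a strain, in the order C57BL/6J, 129X1/SvJ, FVB/NJ, BALB/c and DBA/2, were 2, 3, 5, 3 and 4. They became 2, 0, 9, 5 and 9 with arrays centred and scaled, 2, 0, 9, 6 and 8 with quantile normalization, and 3, 5, 6, 5 and 5 with a dye term. Cy3 pools alone gave 0, 2, 2, 1 and 2, Cy5 pools alone 0 in all, analysis of variance 2, 1, 4, 1 and 4, and array weights 3, 0, 10, 6 and 12. Without the 129X1/SvJ pools, an alternative chosen after seeing the data, the other strains had 5, 10, 6 and 6. Leaving out 1 pool gave 0 to 2, 1 to 7, 3 to 7, 1 to 6 and 3 to 5, and for the dye 8 to 20 against 16. The highest counts for 129X1/SvJ and BALB/c came without 129X1/SvJ pool 4, and the lowest for FVB/NJ without FVB/NJ pool 1, 2 or 4 or DBA/2 pool 2 or 3. With the pool number as a replicate block, 14 elements passed the F test, and strain counts were 2, 2, 5, 2 and 4. Pool numbers shared across strains were not treated as a pairing in the main fit. Deviations of same-number pools correlated from -0.33 to 0.42, and pools of 1 number in 4 strains shared a dye. At the same dye their median was 0.27, against 0.18 between pools of other numbers. For pools of unlike dye the medians were -0.11 and -0.23. Same-number pools thus correlated somewhat more than others. The block ended the call of Itga8 element 5932 (adjusted p = 0.114). Of genes that did not pass, differences reversed for Timp2 (C57BL/6J minus 129X1/SvJ 0.54, but -0.37 in Cy3 pools, -0.0738 with array weights, and between -0.36, without 129X1/SvJ pool 4, and 0.92 when 1 pool was left out), Timp1 (between -0.15, without 129X1/SvJ pool 3, and 1.01 when 1 pool was left out), Lamb1 (-0.0078 in Cy5 pools), Nid1 (-0.0080 in Cy3 pools), Dcn (-0.19 on element 10953) and Thbs2 (-0.11 on element 9003). The correlation of Col3a1 (element 2985) with Col1a1 was -0.448 in Cy3 pools. With Sparc it was -0.585 in Cy5 pools and -0.26 without the 2 pools farthest out. With Col1a2 it was 0.926 and 0.821 within dyes, where the design allows no p below 0.0625. The cause of these changes was not tested.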
